A study of Mus musculus with 3 samples.

Results

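The genes described here are 7 genes of the colony stimulating factor system in RAW264.7 cells, a transformed mouse macrophage line: the growth factor genes Csf1 and Csf3 and the receptor genes Csf1r, Csf2ra, Csf2rb, Csf2rb2 and Csf3r. They were chosen by gene symbol in the platform annotation, after Csf1 had been seen among the genes highest on the palmitate array relative to the others, so the palmitate values of Csf1 are a description and support nothing. Each gene had 1 probe set, 7 of the 35556 on the array. Of these 7 genes among 18820 with a probe set of their own, 6 passed the filter on low values, a mean log2 value of at least 4.14 over the arrays, and 9410 genes in all passed it. Csf3 did not pass.

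The cells had been incubated for 6 hours with 500 µM palmitate, a saturated fatty acid, 500 µM elaidate, the trans isomer of oleate, or 500 µM oleate, a cis monounsaturated fatty acid. All 3 were carried on bovine albumin free of fatty acids, at a ratio of 2 fatty acid molecules to each albumin, after reconstitution in ethanol and dissolution in potassium hydroxide. Total RNA of each culture was hybridised to 1 Affymetrix whole-transcript array. The 3 arrays hold no culture without a fatty acid and no replicate, so each difference below compares 2 single arrays. It carries no replicate error and no p-value, and it gives no response relative to carrier alone. Values are log2 expression values, on which a difference of 1 is 2-fold.

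Colony stimulating factors are secreted proteins that keep myeloid cells alive and make them divide and mature. CSF1 signals through the receptor tyrosine kinase CSF1R, on which most tissue macrophages depend. CSF2 binds the alpha chain CSF2RA, which pairs with the signalling beta chain CSF2RB, and the same beta chain serves the receptors for interleukins 3 and 5. CSF3 drives neutrophil production through CSF3R.

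The ligand Csf1 differed most among the 7 genes. It had log2 values of 8.14 with palmitate, 5.50 with elaidate and 4.91 with oleate, all above the filter value. The palmitate array was high and the other 2 lay much closer together. Palmitate minus oleate was 3.23, or 9.38-fold, palmitate minus elaidate 2.65, or 6.27-fold, and elaidate minus oleate 0.58. The elaidate value thus lay 18.0% of the way from the oleate to the palmitate value. Among the 9410 genes past the filter, 5 genes, Csf1 included, had a palmitate minus oleate difference at least as high, and 6 had such a palmitate minus elaidate difference. For elaidate minus oleate the number was 69 genes, or 0.733%, where the middle 95% of all genes ran from -0.23 to 0.33.

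**Figure D1:**
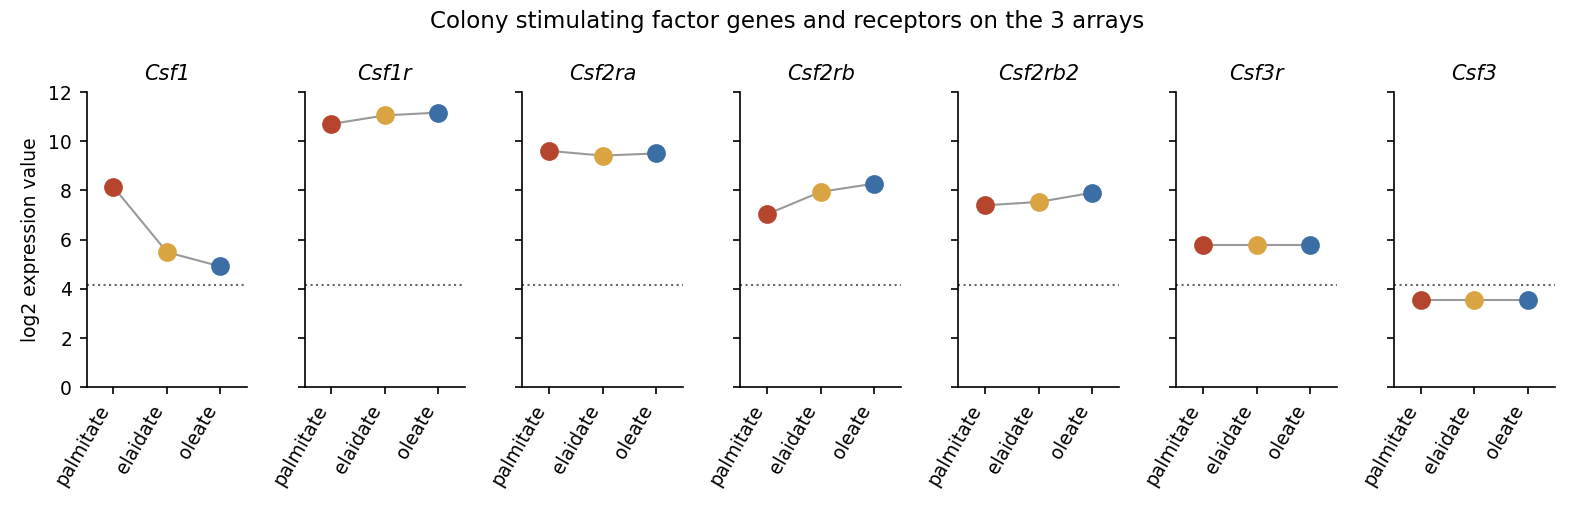
Log2 expression values of the 7 genes on the palmitate, elaidate and oleate arrays (1 array each; points are single values and the dotted line is the filter value of 4.14). Csf1 is highest on the palmitate array at 8.14, Csf1r, Csf2rb and Csf2rb2 are lowest there, and Csf3r and Csf3 have the same value on all 3 arrays.

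The promoter window of Csf1 is shown because the widest difference among these genes belongs to it. The 250 bases before the RefSeq start of Csf1 lie at chr3:107760470-107760719 (GRCm38.p6, minus strand) and are 56.4% G or C. Capitals mark matches to a kappaB-type motif, the kind of site that NF-kB binds, searched on both strands as GGGA, then any 4 letters, then CC.
Csf1: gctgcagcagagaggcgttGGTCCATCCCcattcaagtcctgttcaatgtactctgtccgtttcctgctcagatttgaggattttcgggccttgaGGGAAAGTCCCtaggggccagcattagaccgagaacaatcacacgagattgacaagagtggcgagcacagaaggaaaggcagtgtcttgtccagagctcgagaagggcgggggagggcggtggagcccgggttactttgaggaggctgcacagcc
One match on the opposite strand spans positions -231 to -222 from the start. Matches on both strands overlap at -155 to -145. This motif was present in 17.6% of the 32851 promoter windows of the same length in the RefSeq table. The motifs were chosen with the Csf1 window in view, so a match there supports nothing. The windows were also searched for AP-1 (TGANTCA), the C/EBP-ATF element (TGATGNAA), the cyclic AMP element (TGACGTCA), a PU.1-type motif (GAGGAAG) and the GC box (GGGCGG). Of these, the GC box was found in the Csf1 window, at -51 to -46 and -41 to -36 on the gene's strand, and 32.7% of all windows hold it. A match is a run of letters and no evidence of binding.

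The other growth factor gene of the group, Csf3, had a log2 value of 3.57 on each of the 3 arrays. This lies below the filter value, and the deposited table has no detection call to place it above or below background. Other ligands of the same receptors also lay below the filter value. Il34, the second ligand of CSF1R, had 2.22 on the palmitate, 2.22 on the elaidate and 2.39 on the oleate array. Csf2, encoding the granulocyte-macrophage factor, had 2.97, 2.89 and 2.97 on these arrays in the same order. Il3 stood at 3.02 and Il5 at 2.22 on all arrays. Of the ligand genes analysed for these receptors, Csf1 was thus the one that passed the filter.

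Kitl and Flt3l encode helical cytokines related to CSF1, whose receptors KIT and FLT3 belong with CSF1R to the class III receptor tyrosine kinases. Kitl had log2 values of 7.37 with palmitate, 6.64 with elaidate and 6.04 with oleate. Its order over the arrays was that of Csf1, with a smaller palmitate minus oleate difference of 1.32 and an elaidate minus oleate difference of 0.59. Flt3l had 5.71 on every array. The receptor genes Kit, Flt3, Pdgfra and Pdgfrb lay below the filter, with values between 2.36 and 2.82, so Csf1r was the member of this receptor class past it.

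The receptor Csf1r had log2 values of 10.70 on the palmitate, 11.05 on the elaidate and 11.16 on the oleate array. Its order was the reverse of that of its ligand. Palmitate minus oleate was -0.46, palmitate minus elaidate -0.35 and elaidate minus oleate -0.12, each within the middle 95% of all genes. For palmitate minus oleate that middle range ran from -0.76 to 0.81, and for palmitate minus elaidate from -0.74 to 0.68. The saturated fatty acid array was thus 1.38-fold below the cis array for the receptor and 9.38-fold above it for the ligand. In bulk RNA, fewer cells carrying a transcript and less of it in each cell cannot be told apart.

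**Figure D2:**
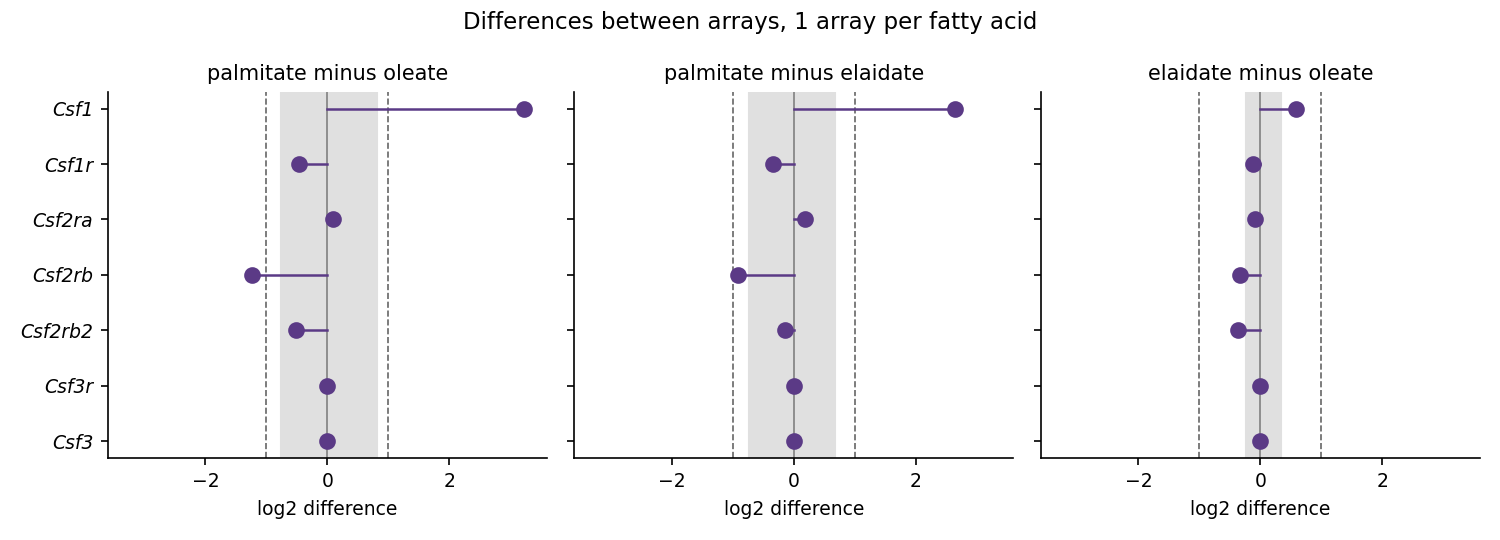
Log2 differences of the 7 genes between pairs of arrays (1 array per fatty acid), with the middle 95% of the 9410 genes past the filter shaded and dashed lines at 2-fold. Csf1 lies outside the shading in each comparison, Csf2rb lies past 2-fold for palmitate minus oleate at -1.24, and Csf2ra stays near 0.

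The chain genes of the CSF2 receptor differed in size and sign between the arrays. The beta chain gene Csf2rb had log2 values of 7.04 with palmitate, 7.95 with elaidate and 8.28 with oleate. Palmitate minus oleate was -1.24, or 2.36-fold lower, palmitate minus elaidate -0.91 and elaidate minus oleate -0.33. All 3 differences lay below the middle 95% of genes, and 56 genes, or 0.595%, were as low or lower for palmitate minus oleate. The 3 differences are formed from the same 3 values, so they are not separate results. The alpha chain gene Csf2ra had 9.61 on the palmitate, 9.42 on the elaidate and 9.51 on the oleate array. Its differences were 0.10 for palmitate minus oleate, 0.19 for palmitate minus elaidate and -0.09 for elaidate minus oleate, all within the middle 95%. Palmitate minus oleate therefore differed by -1.34 between beta and alpha chain genes, with no error to set beside it.

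Csf2rb2, which in mice encodes a second beta chain used by the interleukin 3 receptor, had log2 values of 7.40 with palmitate, 7.53 with elaidate and 7.91 with oleate. It was lowest on the palmitate array, and the elaidate value lay closer to it than to the oleate value. Elaidate minus oleate was -0.37, against -0.33 for Csf2rb, while palmitate minus elaidate was -0.14, against -0.91 for Csf2rb. For elaidate minus oleate, 48 genes, or 0.51%, were as low or lower than Csf2rb2. Csf2rb and Csf2rb2 are close sequence relatives and neighbours on chromosome 15, with only the microRNA gene Mir7676-1 between them in RefSeq. Whether their probe sets share hybridisation was not tested, so the split between the copies is uncertain. Il3ra, the alpha chain of the interleukin 3 receptor, had 4.72 on the palmitate array and 4.76 on both others. Il5ra, of the interleukin 5 receptor, stood at 1.87 on every array and did not pass the filter.

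Promoter windows of Csf2ra and Csf2rb2 are printed as the chain genes of the CSF2 and interleukin 3 receptors among the 7 with a window in the table, to be read beside that of Csf1. They lie at chr19:61228419-61228668 and chr15:78305722-78305971 (GRCm38.p6, both minus strand, 250 bases before the RefSeq start), and capitals mark the cyclic AMP element and the PU.1-type motif.
Csf2ra: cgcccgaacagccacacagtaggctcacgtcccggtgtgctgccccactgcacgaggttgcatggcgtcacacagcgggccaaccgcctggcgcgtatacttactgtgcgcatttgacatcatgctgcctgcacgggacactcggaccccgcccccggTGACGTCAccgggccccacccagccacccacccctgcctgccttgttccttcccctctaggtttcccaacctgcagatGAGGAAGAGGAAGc
Csf2rb2: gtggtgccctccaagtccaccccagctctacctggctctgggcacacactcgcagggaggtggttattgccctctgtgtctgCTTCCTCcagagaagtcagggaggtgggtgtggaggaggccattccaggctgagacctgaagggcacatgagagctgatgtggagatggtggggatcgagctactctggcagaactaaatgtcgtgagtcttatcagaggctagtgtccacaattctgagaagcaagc
The cyclic AMP element stands once in the Csf2ra window, at -92 to -85, and in 1.55% of all windows. PU.1-type letters occur at -14 to -2 in Csf2ra, as 2 overlapping matches, and at -168 to -162 on the opposite strand in Csf2rb2, beside 10.6% of all windows. A GC box lay in the Csf2ra window, at -102 to -97 on the opposite strand, and is not in capitals. No kappaB-type match lay in either window. The window of Csf3r, whose value was equal on all arrays, held a kappaB-type match at -129 to -120 and a PU.1-type match at -86 to -80.

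Csf3r, the receptor for the granulocyte factor, had a log2 value of 5.79 on all 3 arrays, equal to within 1e-06. Equal values on all arrays were common, at 2592 genes or 27.5% of those past the filter, so an equal value cannot be taken as a measurement of equal RNA. The line carried few signs of granulocytes. Of 11 measured granulocyte markers 1 passed the filter, the calcium-binding protein gene S100a8 at 4.61 on each array, and the neutrophil elastase gene Elane lay below it at 2.53.

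Counted at the 2-fold limit, 2 of the 7 genes differed for palmitate minus oleate, Csf1 higher and Csf2rb lower, where 2.87% of all genes past the filter did, 1.65% higher and 1.22% lower. For palmitate minus elaidate, Csf1 alone did, where 1.85% of genes did, 0.978% higher and 0.871% lower. None did for elaidate minus oleate, where 0.106% of genes did, 0.106% higher and 0% lower. Csf1 was part of why the group was selected, so nothing is read from its share in these counts. The 7 genes include Csf3, which lay below the filter and was equal on all arrays. Figures for all genes cover only those past the filter. The value closest to the limit without reaching it was that of Csf2rb for palmitate minus elaidate, at -0.91. In sign, the elaidate array was above oleate for 1 gene, below for 4 and equal for 2, where 2968 of all genes past the filter were above and 2290 below. Palmitate was above oleate for 2 genes, below for 3 and equal for 2, where 2910 of all genes were above and 3459 below. Against elaidate the counts of the 7 genes were the same, and 2630 of all genes were above and 3565 below.

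Genes that carry the signal from CSF1R inside the cell were then set beside the receptor. This list and those below were chosen with earlier results of these data known, so nothing is read from their shares past 2-fold. Of 24 listed, 20 were measured and all 20 passed the filter. Palmitate minus oleate was higher for 4, lower for 10 and equal for 6, with a median of -0.04. Of all 9410 genes past the filter, 2910 were higher and 3459 lower, with a median of 0. At least 2-fold lower were Pik3cd, the leukocyte catalytic subunit of phosphoinositide 3-kinase, and Dok2, an adaptor that restrains tyrosine kinase signalling. Over all genes past the filter, 1.22% were at least 2-fold lower. Pik3cd had log2 values of 6.50 on the palmitate, 7.75 on the elaidate and 8.13 on the oleate array, a palmitate minus oleate difference of -1.62. Dok2 had 6.28, 7.35 and 7.44 on these arrays in the same order, a difference of -1.16. Against elaidate they stood at -1.24 and -1.07, and were again the members past 2-fold, where 0.871% of all genes were lower. Elaidate minus oleate was higher for 5 members, lower for 8 and equal for 7, with none past 2-fold. Picked after their values were seen, the inositol phosphatase gene Inpp5d stood at -0.92 and the adaptor gene Gab2 at 0.84 for palmitate minus oleate, the adaptor being the highest of the list. Sos1, an exchange factor gene for Ras, the adaptor gene Shc1 and the kinase gene Syk were equal on all arrays.

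For the JAK-STAT genes that act below the CSF2 and CSF3 receptors, 12 of 14 measured genes passed the filter and none was 2-fold different in any comparison. Palmitate minus oleate was higher for 2, lower for 8 and equal for 2, with a median of -0.10. The furthest from 0 were Pim2, a survival kinase gene, at -0.64 and Socs3, a feedback inhibitor of CSF3 signalling, at -0.38. Among transcription factors that act on the Csf1r promoter, 8 of 10 passed, with 3 higher and 5 lower for palmitate minus oleate and a median of -0.08. Past 2-fold, where 1.22% of all genes were lower, were Irf8 at -1.38 and the AP-1 subunit gene Fos at -1.28. Irf8, a factor of the monocyte lineage, had 7.95 with palmitate, 8.84 with elaidate and 9.34 with oleate. Spi1, which encodes PU.1, the main activator of Csf1r, was added after its values were seen, and had 11.18, 11.23 and 11.28 on these arrays in the same order.

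Proteases and regulators that shed or turn over CSF1 and its receptor had a median palmitate minus oleate difference of 0 over 6 genes past the filter of 7 measured, with 2 higher, 2 lower and 2 equal. Ubash3b, a tyrosine phosphatase gene of the TULA family, stood at -1.12 and was the member past 2-fold, where 1.22% of all genes were lower. The sheddase gene Adam17 had a value of 9.86 on all 3 arrays. Both it and Furin, a proprotein convertase gene, belonged to the equal members.

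**Figure D3:**
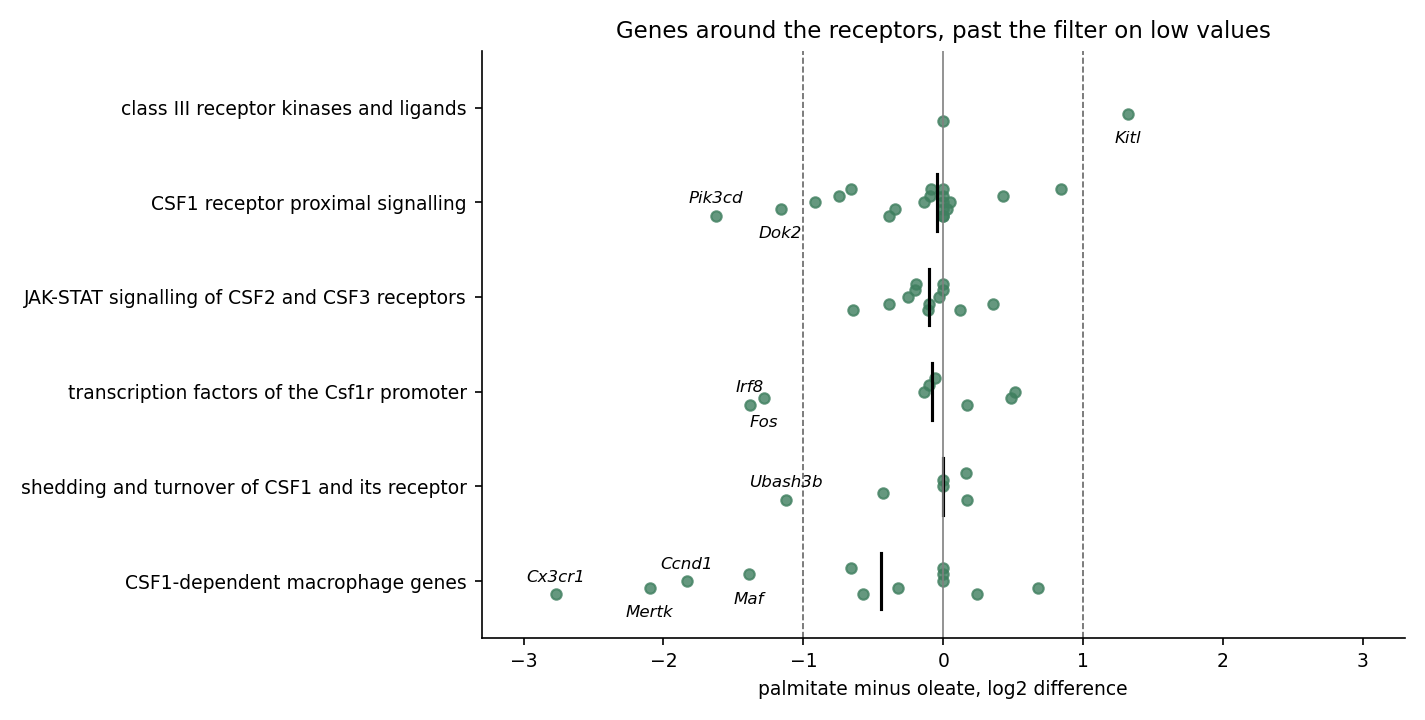
Palmitate minus oleate log2 differences of genes past the filter in 6 lists around the receptors (1 array per fatty acid; points are genes, spread vertically for legibility, black bars are medians of lists with at least 5 genes, dashed lines mark 2-fold). Named genes are past 2-fold: Kitl is higher on the palmitate array. Lower there are Pik3cd, Dok2, Irf8, Fos, Ubash3b and, from the list of CSF1-dependent genes, Cx3cr1, Mertk, Ccnd1 and Maf.

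Genes known to depend on CSF1 in macrophages included 4 that were at least 2-fold lower with palmitate than with oleate. Of 12 past the filter, palmitate minus oleate was higher for 2, lower for 7 and equal for 3, with a median of -0.45, and 4 of the 12 (Adgre1, Mertk, Cd14 and Cd68) also stand in the macrophage marker list. Past 2-fold, where 1.22% of all genes were lower, were Cx3cr1, a chemokine receptor gene, at -2.77, Mertk, a gene for uptake of dying cells, at -2.10, the cyclin gene Ccnd1 at -1.83 and the transcription factor gene Maf at -1.39. Ccnd1, a target of CSF1 in the G1 phase, had log2 values of 8.33 on the palmitate, 9.97 on the elaidate and 10.16 on the oleate array. Palmitate minus elaidate was lower for 8, higher for 1 and equal for 3, with a median of -0.31, and Cx3cr1, Mertk and Ccnd1 were past 2-fold, where 0.871% of all genes were lower. Elaidate minus oleate had a median of -0.02, with 3 higher and 7 lower. The list was chosen with earlier results of these data known, so nothing is read from its counts beside those shares.

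The labelled cell type was checked on 10 macrophage markers, Csf1r among them, and all 10 passed the filter. Their mean log2 value was 8.83 with palmitate, 9.36 with elaidate and 9.59 with oleate. For palmitate minus oleate, 9 of 10 were lower, with Cd68 equal, where 3459 of the 9410 genes past the filter were lower and 2910 higher. Mertk, the complement gene C1qa at -1.48 and the scavenger receptor gene Marco at -1.14 were past 2-fold, where 1.22% of all genes were lower. This lower marker level, in which Csf1r itself is counted, went along with the lower Csf1r and Csf2rb values. Its part in them was not tested. Of markers of other cells, 2 of 8 for dendritic cells passed (Batf3 at -0.15 and Ccr7 at 0 for palmitate minus oleate) and 3 of 9 for osteoclasts, Tnfrsf11a at -0.90, Mmp9 at -0.62 and, in the other direction, Dcstamp at 0.49. For fibroblasts 2 of 9 passed, Col1a1 and Acta2, both equal on all arrays, and for lymphocytes 0 of 7. The mean level of the fibroblast markers, cells that are a known source of CSF1, was 3.20 on the palmitate, 3.20 on the elaidate and 3.19 on the oleate array.

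The genes whose values were most like those of Csf1 were found by the distance between log2 values, each gene centred on its mean of the 3 arrays. With 3 arrays, a small distance says only that the sizes of the differences were alike. The 8 nearest were Gadd45a at a distance of 0.20, Ndrg1 at 0.32, Trib3 at 0.33, Rgs1 at 0.34, Ppp1r15a at 0.41, Nupr1 at 0.41, Adh7 at 0.42 and Sesn2 at 0.45. Only 11 genes of 9410 lay within 0.5. Gadd45a, a stress-inducible growth arrest gene, had log2 values of 10.19 with palmitate, 7.26 with elaidate and 6.83 with oleate. These 8 genes were all highest on the palmitate array and lowest on the oleate array, with palmitate minus oleate between 2.71 and 3.68. Their high palmitate values follow from the choice by distance to Csf1. Elaidate minus oleate ran from 0.03 for Ppp1r15a to 0.95 for Rgs1, beside 0.58 for Csf1. Of 6 of these genes with a promoter window, none held the kappaB-type motif, 4 held the GC box and 1 held each of the C/EBP-ATF, AP-1 and cyclic AMP elements. Over all windows the C/EBP-ATF element was present in 3.45% and AP-1 in 6.75%, beside the shares given above for the others. Given how the motifs were chosen, nothing is read from these counts in 6 windows.

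**Figure D4:**
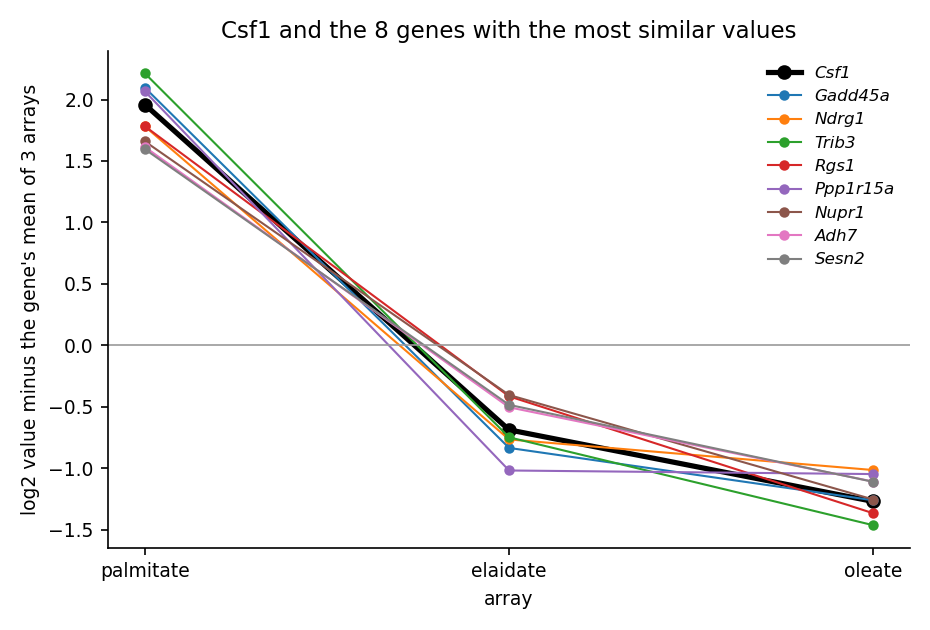
Log2 values of Csf1 (thick line) and its 8 nearest genes on the palmitate, elaidate and oleate arrays, each minus the gene's own mean of the 3 arrays (1 array per fatty acid; lines join values of 1 gene). All are highest on the palmitate array, which follows from how they were chosen. Elaidate minus oleate ranges from 0.03 for Ppp1r15a to 0.95 for Rgs1.

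By the same measure Csf1r had many genes like it, with 79 within a distance of 0.05 and 382 within 0.1. The nearest was Ctbp1, a corepressor gene, with log2 values of 8.90 on the palmitate, 9.25 on the elaidate and 9.36 on the oleate array. After it came Naaa, Ehmt2, Slc25a45, Napsa, Haus4, Ebi3 and Otulinl. All 8 had palmitate minus oleate differences between -0.48 and -0.45. Csf1 had 0 genes within 0.1, which follows from its choice among the highest palmitate values.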

How the data were processed

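The authors deposited a log2 value for each probe set and array, computed with RMA (background correction, normalization between arrays and summary by median polish), per the submitters' processing notes, which state no version. These log2 values were used as deposited. Arrays have no read depth, and 1 array per fatty acid limits the precision. Groups come from the labels' titles. Of 35556 probe sets, 21218 had 1 gene symbol in the platform annotation, which can be old, 1881 had several and 12457 were not named there; 21185 matched RefSeq by gene identifier. Several probe sets of a gene were averaged, and the filter was the median of all gene means.

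With no replicate no test was run; log2 differences and genes at least 2-fold different were computed. The counting step returned the known answers on simulated data whose shifts lay far past the 2-fold limit. The distance step was also run on them, but its check could not fail, so it says nothing about that step. Named were the 7 genes, all measured genes of the list of other ligands and chains, and for other lists those at least 2-fold different, or else the 2 furthest from 0 for palmitate minus oleate. Dcstamp was added after its value was seen. Other genes added later are said so in the text, apart from genes named as equal on all arrays or as low markers. The nearest genes leave out predicted genes and small RNA and olfactory or vomeronasal receptor genes. Members, lists and motifs were chosen with earlier results of these data known, and the motifs with the Csf1 window in view. Promoter sequences are from RefSeq (GRCm38.p6), and 6 of the 8 genes nearest to Csf1 matched; the files name no build. Alternatives were other filters, 1.5-fold and 3-fold limits, median centring, cyclic loess (span 0.7, 3 iterations), quantile normalization and the brightest probe set. Tools were Python 3.11.15, numpy 2.4.6, pandas 2.3.3, matplotlib 3.10.9, R 4.3.3 and limma 3.58.1.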

Additional observations from a re-analysis of the deposited data

How the results depend on the processing

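Csf1 kept its direction and its side of the 2-fold limit under median centring, cyclic loess and quantile normalization. Palmitate minus oleate lay between 3.19 and 3.23, palmitate minus elaidate between 2.62 and 2.65 and elaidate minus oleate between 0.57 and 0.58. Each of the 7 genes had 1 probe set, so taking the brightest probe set could not change their values and is no check on them. Csf2rb ran from -1.28 to -1.22 for palmitate minus oleate. No other of the 7 genes changed sides or moved by more than the standard deviation of receptor genes for smell and pheromones, 0.093 for palmitate minus oleate. Csf3r and Csf3, equal as deposited, stood between -0.04 and 0 under these alternatives.

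Counts depended on the limit and the filter. For palmitate minus oleate, 875 genes differed at 1.5-fold, 81 at 3-fold and 157 with a filter at the 75th percentile, against 270. The members past the limit, 2 as reported, came to 1 at 3-fold, which Csf2rb missed, and 1 with the 75th percentile filter, which Csf1 did not pass. For palmitate minus elaidate, 716, 48 and 96 genes differed under these 3 settings, against 174, and 2 members at 1.5-fold and 0 with the 75th percentile filter, against 1. For elaidate minus oleate, 74 genes differed at 1.5-fold and 0 at 3-fold, against 10. The remaining counts stayed within 1.5 times of those reported, including those without genes equal on all arrays, an alternative chosen after seeing the data. No paired analysis was possible because each fatty acid has 1 array. Without replicate arrays, the error of every difference is unknown.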
